A study of Mus musculus with 10 samples.

Results

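The 33 genes described here encode acute phase proteins of the liver and the receptors and transducers through which interleukin-6 (IL-6) and interleukin-1 (IL-1) act on hepatocytes. They were chosen by gene name from a table of 56748 genes, and each of the 33 passed the filter on low counts. The RNA came from primary hepatocytes of wild-type mice that were kept overnight in medium conditioned by starved adipocytes. In the Mttp_KO_CM group the adipocytes came from A-Mttp-/- mice and are labelled Mttp KO, and in the Mttp_flox_CM group they came from Mttp f/f mice. The product of Mttp, microsomal triglyceride transfer protein, moves lipid onto nascent lipoproteins, and since the hepatocytes are wild type in both groups their own Mttp level does not check the deletion. Each group held 5 RNA-seq libraries, and the text gives values of replicates 1 to 4 in that order, followed by the library whose column number no label gives, called unnumbered.

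In both groups the adipocytes were grown from stromal vascular cells of the inguinal fat pad. The donors were male, had eaten an obesogenic diet for 6 months, and are given as n = 3. Both cultures were differentiated for 3 days with IBMX, insulin, 1 µM dexamethasone, indomethacin and 1 µM rosiglitazone, then held for 2 days with insulin and for 2 days without it. The labels do not state the driver of the deletion, the age of the mice or how many hepatocyte donors there were. They also do not tie a library to its own culture or animal, and the p-values rest on the variation among these libraries, part or all of which may be technical. Summed counts ran from 14283517 to 17178131 in Mttp_KO_CM and from 14199798 to 15950530 in Mttp_flox_CM, and each member had at least 164 counts in every library. Hepatocytes given unconditioned medium are not among the samples analysed here, so every value below compares one adipocyte medium with the other.

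The acute phase response is the change in plasma protein output by which the liver answers infection and injury. IL-6 binds its receptor IL6RA, the complex engages gp130 (Il6st), and Janus kinases then phosphorylate STAT3, which enters the nucleus and raises transcription of plasma protein genes, while SOCS3 is induced in turn and shuts gp130 signalling down. IL-1 acts through IL1R1 and NF-kB. Serum amyloid A and orosomucoid genes respond most to both cytokines together, and the fibrinogen genes mainly to the IL-6 family. In mice serum amyloid A and serum amyloid P are the strong responders, and C-reactive protein is a minor one.

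The receptor and transducer genes were lower in cultures given knockout medium, and the secreted proteins divided. Of the 33 genes, 7 were higher and 16 lower in Mttp_KO_CM (edgeR quasi-likelihood test, Benjamini-Hochberg adjusted p under 0.05 over all 14183 genes tested), and 10 did not pass. Among all genes tested 18.2% were higher and 18.1% lower, 36.4% in either direction. The members' median log2 change was -0.04, with a range from -0.57 to 0.48, and the median over all genes was 0.00. The median size of change without regard to sign was 0.17 for the members and 0.14 for all genes. The groups of libraries did not overlap for 21 members, 7 with Mttp_KO_CM above and 14 below, where 25.7% of all genes did not overlap. Among the 21 members with a mean of at least 100 CPM (the count of a gene relative to library size, with TMM scaling), a level chosen after the data were seen, 4 were higher and 10 lower, and of the 2069 genes tested at that level 41.8% were higher and 19.6% lower.

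The changes were small. By edgeR, 0 of 33 members passed the threshold with a change of 1.5-fold or more (log2 0.58), where 7.47% of all genes did. The count at that size was also 0 at an unadjusted p under 0.05, by DESeq2 and by limma-voom, and 26 members had an unadjusted p under 0.05 at any size. Serpina10 alone crossed 1.5-fold under some settings: without TMM scaling, with replicate numbers as a block, and without Mttp_KO_CM replicate 1, where its log2 change was -0.65.

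**Figure D1:**
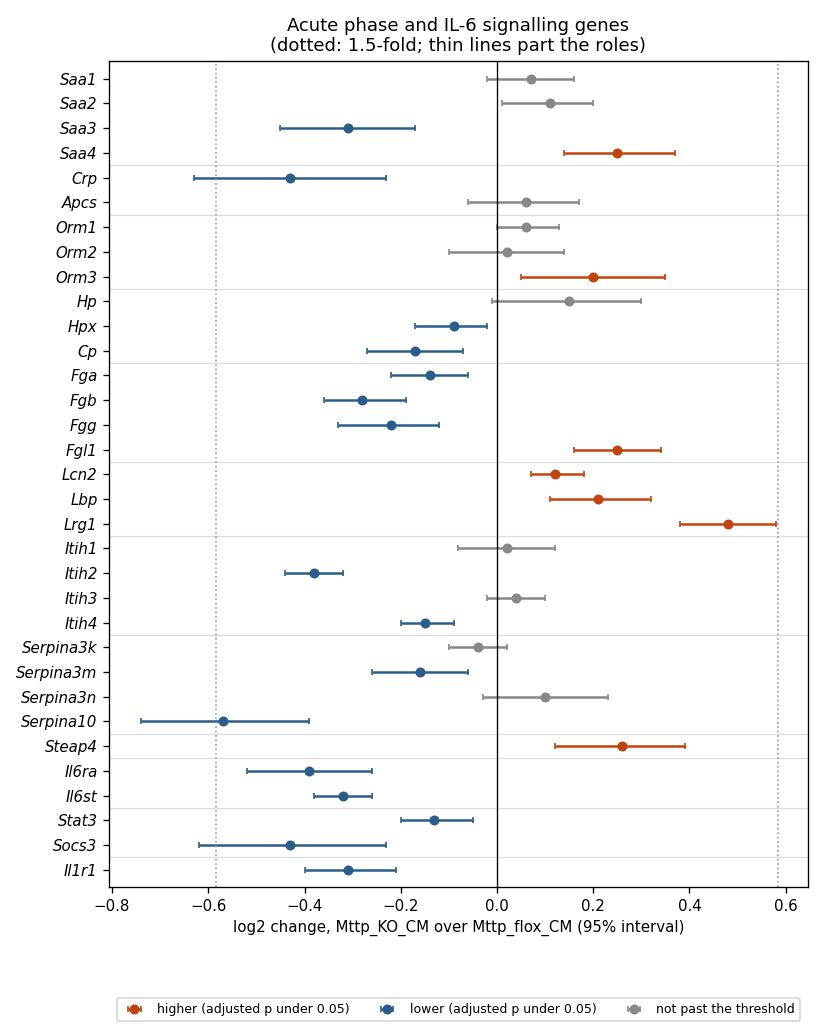
Log2 change of each of the 33 genes (Mttp_KO_CM over Mttp_flox_CM, horizontal axis), ordered by role down the page, with bars for the 95% interval and dotted lines at 1.5-fold. The receptor, STAT3 and SOCS3 genes at the bottom all lie left of 0, from -0.43 for Socs3 to -0.13 for Stat3, while Lcn2, Lbp and Lrg1 lie right of 0.

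Promoter sequences are shown for 6 members, because the 3 fibrinogen chain genes fell together, Socs3 is the feedback gene of the pathway, and Lrg1 and Steap4 were among the genes that rose. They are RefSeq windows of build GRCm38.p6, from 250 bases before to 50 bases after the gene's start, and 26 of the 33 members matched a window in that table, some with more than 1 start. The other 7 are Orm1, Hp, Fgl1, Lbp, Serpina3k, Serpina3m and Serpina10. Capitals mark matches to 4 motifs on either strand, namely TTCNNNGAA, the STAT palindrome, CTGGGAA, the core of the IL-6 response element of liver genes, TTGCNNAA, a C/EBP-type sequence, and an NF-kB-type sequence of GGG, any 3 bases and TTCC.
Fgg promoter, chr3:83007474-83007773, plus strand: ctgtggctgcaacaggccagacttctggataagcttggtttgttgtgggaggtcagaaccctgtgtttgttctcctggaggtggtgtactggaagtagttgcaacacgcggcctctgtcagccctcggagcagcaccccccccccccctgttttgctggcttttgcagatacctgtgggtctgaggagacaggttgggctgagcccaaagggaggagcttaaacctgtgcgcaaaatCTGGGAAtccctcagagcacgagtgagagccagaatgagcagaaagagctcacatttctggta
Fga promoter, chr3:83025903-83026202, plus strand: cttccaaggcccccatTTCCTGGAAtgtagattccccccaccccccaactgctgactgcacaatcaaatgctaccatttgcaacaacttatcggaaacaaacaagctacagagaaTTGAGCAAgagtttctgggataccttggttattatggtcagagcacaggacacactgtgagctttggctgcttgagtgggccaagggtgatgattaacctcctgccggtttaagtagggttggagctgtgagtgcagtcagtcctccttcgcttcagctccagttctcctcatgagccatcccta
Fgb promoter, chr3:83049814-83050113, minus strand: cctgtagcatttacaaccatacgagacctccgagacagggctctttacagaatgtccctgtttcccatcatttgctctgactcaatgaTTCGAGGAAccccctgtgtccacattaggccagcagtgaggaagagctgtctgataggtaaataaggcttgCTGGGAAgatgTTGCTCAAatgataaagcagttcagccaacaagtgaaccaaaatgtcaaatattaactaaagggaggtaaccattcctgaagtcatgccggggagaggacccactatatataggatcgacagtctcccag
Socs3 promoter, chr11:117969317-117969616, minus strand: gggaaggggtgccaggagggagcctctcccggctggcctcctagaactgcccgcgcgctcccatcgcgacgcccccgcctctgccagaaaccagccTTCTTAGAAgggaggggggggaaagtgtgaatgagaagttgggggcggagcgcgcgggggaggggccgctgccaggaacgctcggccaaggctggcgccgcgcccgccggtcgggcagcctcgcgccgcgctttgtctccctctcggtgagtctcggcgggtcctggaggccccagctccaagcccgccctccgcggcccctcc
Lrg1 promoter, chr17:56121897-56122196, minus strand: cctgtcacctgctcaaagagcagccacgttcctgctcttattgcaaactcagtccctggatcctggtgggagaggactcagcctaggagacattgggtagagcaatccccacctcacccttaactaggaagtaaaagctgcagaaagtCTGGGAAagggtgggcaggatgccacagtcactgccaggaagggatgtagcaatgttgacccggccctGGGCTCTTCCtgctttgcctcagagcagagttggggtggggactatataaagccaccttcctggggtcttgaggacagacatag
Steap4 promoter, chr5:7960222-7960521, plus strand: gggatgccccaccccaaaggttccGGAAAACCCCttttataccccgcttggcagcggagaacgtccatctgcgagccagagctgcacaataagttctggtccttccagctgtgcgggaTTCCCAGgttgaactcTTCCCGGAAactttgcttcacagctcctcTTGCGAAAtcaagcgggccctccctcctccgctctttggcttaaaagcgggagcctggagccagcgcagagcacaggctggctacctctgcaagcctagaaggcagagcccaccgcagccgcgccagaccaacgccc

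No 2 of the marked motifs overlap in these 6 windows. The Fga window holds TTCCTGGAA at position -234 from the start and TTGAGCAA at -135, the Fgb window TTCGAGGAA at -162 followed by CTGGGAA at -91 and TTGCTCAA at -80, and the Fgg window CTGGGAA at -13. In the Socs3 window the STAT palindrome TTCTTAGAA begins at -154, counted from the start in the RefSeq table, which differs from the starts of the GENCODE M21 transcripts of Socs3. The Steap4 window holds all 4 motifs and the Lrg1 window CTGGGAA at -102 and an NF-kB-type match at -34. Over the 28 windows of members, TTCNNNGAA was found in 21.4%, CTGGGAA in 21.4%, TTGCNNAA in 50.0% and the NF-kB-type sequence in 14.3%. Over all 32851 windows of the table the shares were 8.3%, 11.1%, 10.8% and 5.56%. A match is a string of letters and does not show that a factor binds there, and both genes that rose and genes that fell carry them.

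Both chains of the IL-6 receptor were lower. Il6ra, which encodes the IL-6 binding chain (ENSMUSG00000027947, chromosome 3 from 89771366 to 89820503, minus strand in GRCm39), had 25.8, 27.4, 30.5, 27.5 and 30.4 CPM in Mttp_KO_CM, against 34.3, 36.6, 35.7, 40.3 and 38.4 CPM in Mttp_flox_CM (log2 change -0.39, SE 0.056, edgeR adjusted p = 4.8e-06). Every Mttp_KO_CM library lay below every Mttp_flox_CM library. Il6st, the gene of gp130, the chain shared by the receptors of the whole cytokine family (ENSMUSG00000021756, chromosome 13 from 112600604 to 112646620, plus strand), had 270.3, 287, 268, 281 and 279 CPM in Mttp_KO_CM, against 340.4, 344, 345, 346 and 352 CPM in Mttp_flox_CM. It fell by 0.32 in log2 units (SE 0.027, edgeR adjusted p = 6.1e-10), with a gap between the groups far wider than the spread inside either. Per length, gp130 RNA stood above that of the binding chain in both groups, with 24.8 ± 0.734 FPKM in Mttp_KO_CM and 30.9 ± 0.428 FPKM in Mttp_flox_CM for Il6st and 3.26 ± 0.240 FPKM in Mttp_KO_CM and 4.26 ± 0.275 FPKM in Mttp_flox_CM for Il6ra (SD, n = 5). The ratio of Il6st to Il6ra in counts per kilobase was 7.66 ± 0.632 in Mttp_KO_CM and 7.27 ± 0.395 in Mttp_flox_CM, a difference that did not pass the threshold (exact two-sided permutation test, p = 0.286, adjusted p = 0.327 over the 8 ratios computed).

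The transducer and its inhibitor were lower as well. Stat3 (ENSMUSG00000004040, chromosome 11 from 100775924 to 100830366, minus strand) had 173, 167, 159, 169 and 175 CPM in Mttp_KO_CM, against 178, 181, 191, 186 and 182 CPM in Mttp_flox_CM (log2 change -0.13, SE 0.032, edgeR adjusted p = 0.0031). The groups did not overlap, but the highest Mttp_KO_CM value and the lowest Mttp_flox_CM value were close. The end of Stat3 overlaps Stat5a on the opposite strand over 72 bases, and the counts of Stat5a came to 19.3% of those of Stat3. Socs3 (ENSMUSG00000053113, chromosome 11 from 117856905 to 117860873, minus strand), whose RNA is induced by STAT3 and which blocks gp130, had 12.9, 13.8, 13.7, 10.4 and 13.2 CPM in Mttp_KO_CM, against 17, 15.3, 16.4, 19.6 and 17.7 CPM in Mttp_flox_CM (log2 change -0.43, SE 0.085, edgeR adjusted p = 0.00029). All 5 Mttp_KO_CM values were lower than the Mttp_flox_CM values, at between 164 and 316 counts a library. Il1r1, the signalling receptor of IL-1 (ENSMUSG00000026072, chromosome 1 from 40264240 to 40356417, plus strand), had 54.1, 49.9, 53.2, 53.3 and 52.6 CPM in Mttp_KO_CM, against 62.3, 68.7, 64.9, 67.6 and 61.9 CPM in Mttp_flox_CM and also fell (log2 change -0.31, SE 0.042, edgeR adjusted p = 2.4e-06). The groups were again separate.

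**Figure D2:**
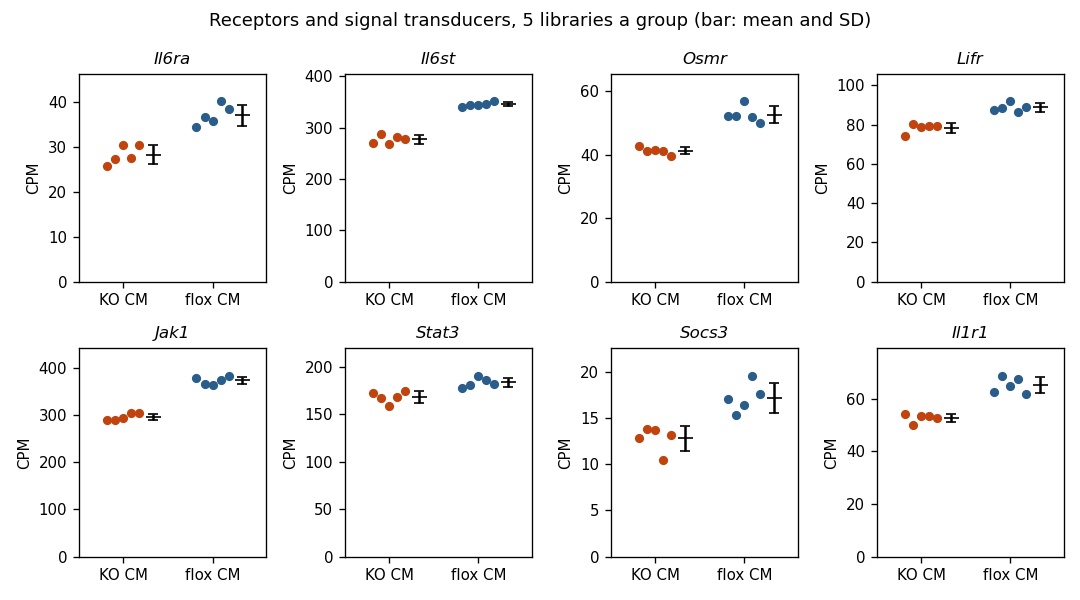
CPM per library (vertical axis, from 0) for 8 receptor and transducer genes, Mttp_KO_CM left and Mttp_flox_CM right in each panel, with the mean and SD as a bar beside the points. In all 8 panels the Mttp_KO_CM points lie below the Mttp_flox_CM points.

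Some other genes of the IL-6 family pathway were lower too. Of 19 listed ligands, receptors and kinases outside the 33 members, 14 passed the count filter, 0 of these were higher and 6 lower by edgeR (median log2 change -0.17). At an unadjusted p under 0.05 the counts were 0 higher and 7 lower, and DESeq2 and limma-voom also gave 0 higher. Jak1, the main kinase bound to gp130, averaged 297 ± 7.15 CPM in Mttp_KO_CM and 374 ± 8.06 CPM in Mttp_flox_CM (log2 change -0.33, SE 0.027, edgeR adjusted p = 2.4e-10). Osmr, the oncostatin M receptor, averaged 41.3 ± 1.07 CPM in Mttp_KO_CM and 52.7 ± 2.60 CPM in Mttp_flox_CM and fell by 0.35 in log2 units. Lifr, the receptor of leukaemia inhibitory factor, fell by 0.18 (SE 0.036). Cntfr, the receptor of ciliary neurotrophic factor, was at a low level, 1.03 ± 0.407 CPM in Mttp_KO_CM and 2.77 ± 0.657 CPM in Mttp_flox_CM (log2 change -1.43, SE 0.24). Il6 itself had between 0 and 3 counts in each library and was not tested.

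Genes known to respond to IL-6 and STAT3 did not move as one. Of 19 tested, 4 were higher and 6 lower, with a median log2 change of -0.11. Cebpb and Cebpd, which encode partner factors that bind acute phase promoters, went opposite ways. Cebpb had 107, 114, 107, 102 and 111 CPM in Mttp_KO_CM, against 88.1, 92.4, 85.9, 97.1 and 90.0 CPM in Mttp_flox_CM (log2 change 0.26, SE 0.039, edgeR adjusted p = 1e-05). Cebpd had 27.3, 28.1, 30.2, 29.3 and 28.7 CPM in Mttp_KO_CM, against 37.6, 35.8, 35.3, 39.3 and 36.1 CPM in Mttp_flox_CM (log2 change -0.36, SE 0.048, edgeR adjusted p = 1.8e-06). Neither pair of groups overlapped. Pim3, a serine kinase, and Myc, a regulator of growth, rose by 0.60 and 0.34 in log2 units, while Il1rn, the IL-1 receptor antagonist, fell by 0.79.

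Markers of liver cells other than hepatocytes were also lower in the cultures, and several receptor genes above are known to be active in such cells. In bulk RNA, fewer cells of a type and less RNA per cell cannot be told apart. All 10 endothelial markers were lower (summed level 1004 to 1060.2 CPM in Mttp_KO_CM and 1768 to 1887 CPM in Mttp_flox_CM), 9 of 10 macrophage markers were lower with Cd68 higher (533 to 599 CPM in Mttp_KO_CM and 778 to 848 CPM in Mttp_flox_CM), and 8 of 10 stellate cell and fibroblast markers were lower (50.2 to 56.1 CPM in Mttp_KO_CM and 88.3 to 97.2 CPM in Mttp_flox_CM). The 6 cholangiocyte markers summed to 291 to 357 CPM in Mttp_KO_CM and 532 to 587 CPM in Mttp_flox_CM, with 2 of 5 tested lower. Most of that sum was Spp1, singled out after its values were seen, with 283 ± 24.9 CPM in Mttp_KO_CM and 513 ± 23.5 CPM in Mttp_flox_CM, and Krt19, Krt7 and Epcam did not pass the test. Of 10 neutrophil and lymphocyte markers, Ly6g, Retnlg, Mpo and Nkg7 were at 0 in every library, and the 10 summed to 1.68 to 2.57 CPM in Mttp_KO_CM and 1.43 to 2.29 CPM in Mttp_flox_CM. Of 8 adipocyte markers, Lep and Cfd were at 0 in every library, and the sum was 123 to 139 CPM in Mttp_KO_CM and 125 to 138 CPM in Mttp_flox_CM, with 2 of the 3 tested higher and 1 lower. Most of that sum was Fabp4, with 108 ± 6.22 CPM in Mttp_KO_CM and 98.3 ± 5.36 CPM in Mttp_flox_CM. Adipoq had at most 2 counts in a library. Both were singled out after their values were seen. The 10 hepatocyte markers, with Alb, Apob and the member Fgb among them, summed to 38759 to 39896 CPM in Mttp_KO_CM and 44169 to 45794 CPM in Mttp_flox_CM. Alb alone made up most of this sum, with 25098 ± 594 CPM in Mttp_KO_CM and 29137 ± 507 CPM in Mttp_flox_CM. Each of the 10 was detected, 7 were lower and 2 higher, and Apob did not pass the test. Whether the change in cell markers has a part in the lower receptor levels was not tested.

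The serum amyloid A genes lie side by side on chromosome 7 and split by gene. Saa1 and Saa2, the forms that bind high density lipoprotein in the acute phase, did not pass the test. Saa1 (ENSMUSG00000074115, chromosome 7 from 46389921 to 46392404, minus strand) had 434, 425, 431, 468 and 469 CPM in Mttp_KO_CM, against 460.5, 441, 404, 433 and 385 CPM in Mttp_flox_CM (log2 change 0.07, 95% interval -0.02 to 0.16, edgeR adjusted p = 0.19). Saa2 (ENSMUSG00000057465, chromosome 7 from 46401214 to 46403737, plus strand) had 291, 312, 315, 346 and 336 CPM in Mttp_KO_CM, against 325, 302, 286, 300.2 and 275 CPM in Mttp_flox_CM (log2 change 0.11, 95% interval 0.01 to 0.20, edgeR adjusted p = 0.054). The groups overlapped for both. Saa2 passed without Mttp_KO_CM replicate 1 (log2 change 0.14, edgeR adjusted p = 0.01) and without Mttp_flox_CM replicate 1 (log2 change 0.13, edgeR adjusted p = 0.013).

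Saa3, a form made mainly outside hepatocytes, by macrophages and fat cells among others, was lower, and Saa4, the constitutive form, was higher. Saa3 had 41.5, 42.9, 50.8, 51.3 and 53.7 CPM in Mttp_KO_CM, against 63.2, 60.4, 57.9, 62.9 and 54.2 CPM in Mttp_flox_CM (log2 change -0.31, SE 0.061, edgeR adjusted p = 0.00023). All Mttp_KO_CM libraries were below the Mttp_flox_CM libraries, though Mttp_KO_CM unnumbered came within 1 CPM of Mttp_flox_CM unnumbered. The part of the lower macrophage markers given above in the level of Saa3 was not tested. Saa4 had 42.9, 41.7, 38.6, 39.0 and 41.6 CPM in Mttp_KO_CM, against 37.9, 33.6, 34.0, 32.5 and 33.3 CPM in Mttp_flox_CM (log2 change 0.25, SE 0.05, edgeR adjusted p = 0.00026), with no overlap between the groups. The ratio of Saa2 to Saa1 in counts per kilobase was 0.707 ± 0.0272 in Mttp_KO_CM and 0.690 ± 0.0125 in Mttp_flox_CM (exact two-sided permutation test, p = 0.238, adjusted p = 0.317), and the adjusted p was 0.025 without Mttp_KO_CM replicate 1. No stretch of 100 bases was shared between the coding transcripts of the 4 genes in GENCODE M21. A read of that length from spliced RNA would thus match only 1 of them exactly. Sequence inside introns and matches with mismatches were not compared. No source used here gives the read length.

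The pentraxin genes, whose proteins bind phosphocholine and other surface patterns, gave a fall and no call. Crp had 15, 13.1, 13.2, 15 and 12.4 CPM in Mttp_KO_CM, against 18.5, 15.5, 17.7, 22.2 and 18.9 CPM in Mttp_flox_CM (log2 change -0.43, SE 0.087, edgeR adjusted p = 3e-04). It is one of the least expressed members per length, at 3.97 ± 0.344 FPKM in Mttp_KO_CM and 5.36 ± 0.711 FPKM in Mttp_flox_CM. Apcs, the gene of serum amyloid P, had 30.5, 27.4, 29.6, 32.0 and 30.3 CPM in Mttp_KO_CM, against 28.5, 29.1, 30.1, 28.4 and 27.9 CPM in Mttp_flox_CM (log2 change 0.06, 95% interval -0.06 to 0.17, edgeR adjusted p = 0.42), with overlapping groups. 

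Orosomucoids are acid glycoproteins of plasma that carry drugs and small lipids. Orm1, the most abundant of the 3, had 563, 563, 559.6, 576 and 555 CPM in Mttp_KO_CM, against 559, 521, 533, 564 and 519 CPM in Mttp_flox_CM (log2 change 0.06, 95% interval 0.00 to 0.13, edgeR adjusted p = 0.075). Orm2 averaged 51.5 ± 4.27 CPM in Mttp_KO_CM and 50.8 ± 2.23 CPM in Mttp_flox_CM (log2 change 0.02, 95% interval -0.10 to 0.14, edgeR adjusted p = 0.8). Orm3 had 20.4, 19.9, 19.1, 20.8 and 21.1 CPM in Mttp_KO_CM, against 18.7, 18.9, 17, 17.6 and 15.9 CPM in Mttp_flox_CM and rose (log2 change 0.20, SE 0.065, edgeR adjusted p = 0.017), and its groups did not overlap. That call was lost without Mttp_flox_CM unnumbered (log2 change 0.16, edgeR adjusted p = 0.061), and Orm1 passed without Mttp_flox_CM replicate 4 (log2 change 0.08, edgeR adjusted p = 0.043). Orm1 and Orm2 transcripts share 6.95% of their 100-base windows, so a part of their reads could be exchanged. Orm2 stood at a ratio of 0.0914 ± 0.00701 in Mttp_KO_CM and 0.0943 ± 0.00238 in Mttp_flox_CM to Orm1, with no difference past the threshold (exact permutation test, p = 0.484, adjusted p = 0.484).

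Of the carriers of haemoglobin, haem and copper, Hpx and Cp fell and Hp did not pass. Hp, whose product haptoglobin binds free haemoglobin, had 3550.4, 3233, 2656, 2503 and 2776 CPM in Mttp_KO_CM, against 2902, 2687, 2877, 2415 and 2406 CPM in Mttp_flox_CM (log2 change 0.15, 95% interval -0.01 to 0.30, edgeR adjusted p = 0.095). Its values spread widely inside each group and the groups overlapped. It passed without Mttp_KO_CM replicate 3 (log2 change 0.18, edgeR adjusted p = 0.041) and without Mttp_KO_CM replicate 4 (log2 change 0.20, edgeR adjusted p = 0.017).

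Hpx, the gene of the haem binder haemopexin, had 3058, 2761, 2798, 2588 and 2773 CPM in Mttp_KO_CM, against 3070.1, 2995, 3078, 2898 and 2866 CPM in Mttp_flox_CM and fell by 0.09 in log2 units (SE 0.033, edgeR adjusted p = 0.028). The groups overlapped, and the call was lost without Mttp_KO_CM replicate 4 (log2 change -0.07, edgeR adjusted p = 0.1), Mttp_KO_CM unnumbered (log2 change -0.09, edgeR adjusted p = 0.053), Mttp_flox_CM replicate 1 (log2 change -0.09, edgeR adjusted p = 0.053) or Mttp_flox_CM replicate 3 (log2 change -0.09, edgeR adjusted p = 0.057). Cp, which encodes the copper ferroxidase ceruloplasmin, had 2081, 2029, 1799.8, 1726 and 1761 CPM in Mttp_KO_CM, against 2187, 2129, 2251, 1990.1 and 2012 CPM in Mttp_flox_CM (log2 change -0.17, SE 0.043, edgeR adjusted p = 0.003), with overlap between Mttp_KO_CM replicates 1 and 2 and the 2 lowest Mttp_flox_CM libraries. Set against each other inside a library, the ratio of Hpx to Hp was 1.03 ± 0.103 in Mttp_KO_CM and 1.21 ± 0.0712 in Mttp_flox_CM, lower in Mttp_KO_CM with no overlap (exact two-sided permutation test, p = 0.00794, adjusted p = 0.0212, where 0.00794 is the smallest p that 5 against 5 libraries can give).

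The fibrinogen genes Fgg, Fga and Fgb, which encode the gamma, alpha and beta chains of the clotting protein, lie within chromosome 3 from 82915031 to 82957170 and all fell. Fgb (ENSMUSG00000033831, chromosome 3 from 82947448 to 82957170, minus strand) had 3382, 3152, 2774, 3162 and 3298 CPM in Mttp_KO_CM, against 3855, 3810.2, 3881, 3774 and 3767 CPM in Mttp_flox_CM (log2 change -0.28, SE 0.035, edgeR adjusted p = 8e-07). Fgg (ENSMUSG00000033860, chromosome 3 from 82915031 to 82922356, plus strand) had 565, 509, 442, 535 and 562 CPM in Mttp_KO_CM, against 622, 578, 618, 613 and 619 CPM in Mttp_flox_CM (log2 change -0.22, SE 0.045, edgeR adjusted p = 0.00031). Fga (ENSMUSG00000028001, chromosome 3 from 82933383 to 82940934, plus strand) had 2097, 2028, 1829.8, 2149 and 2144 CPM in Mttp_KO_CM, against 2219, 2191, 2259.9, 2333 and 2294 CPM in Mttp_flox_CM (log2 change -0.14, SE 0.034, edgeR adjusted p = 0.0017). For all 3 the groups were separate, and Mttp_KO_CM replicate 3 was the lowest library. Without that library the log2 changes were -0.23 for Fgb, -0.17 for Fgg and -0.10 for Fga, and each still passed.

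The beta chain gene fell more than the alpha chain gene. The ratio of Fgb to Fga in counts per kilobase was 1.22 ± 0.0410 in Mttp_KO_CM and 1.34 ± 0.0449 in Mttp_flox_CM, and every Mttp_KO_CM value was lower (exact two-sided permutation test, p = 0.00794, adjusted p = 0.0212). For Fgg to Fga the ratio was 0.366 ± 0.0160 in Mttp_KO_CM and 0.388 ± 0.0105 in Mttp_flox_CM (p = 0.0317, adjusted p = 0.0635, exact permutation test), which did not pass, and passed without Mttp_KO_CM replicate 1 (adjusted p = 0.025). Fgl1, a fibrinogen-related protein that hepatocytes secrete and that also binds the lymphocyte receptor LAG3, went the other way. It had 259.8, 254, 239.5, 263 and 276 CPM in Mttp_KO_CM, against 231, 201, 214, 228 and 211 CPM in Mttp_flox_CM (log2 change 0.25, SE 0.038, edgeR adjusted p = 1e-05), with no overlap.

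**Figure D3:**
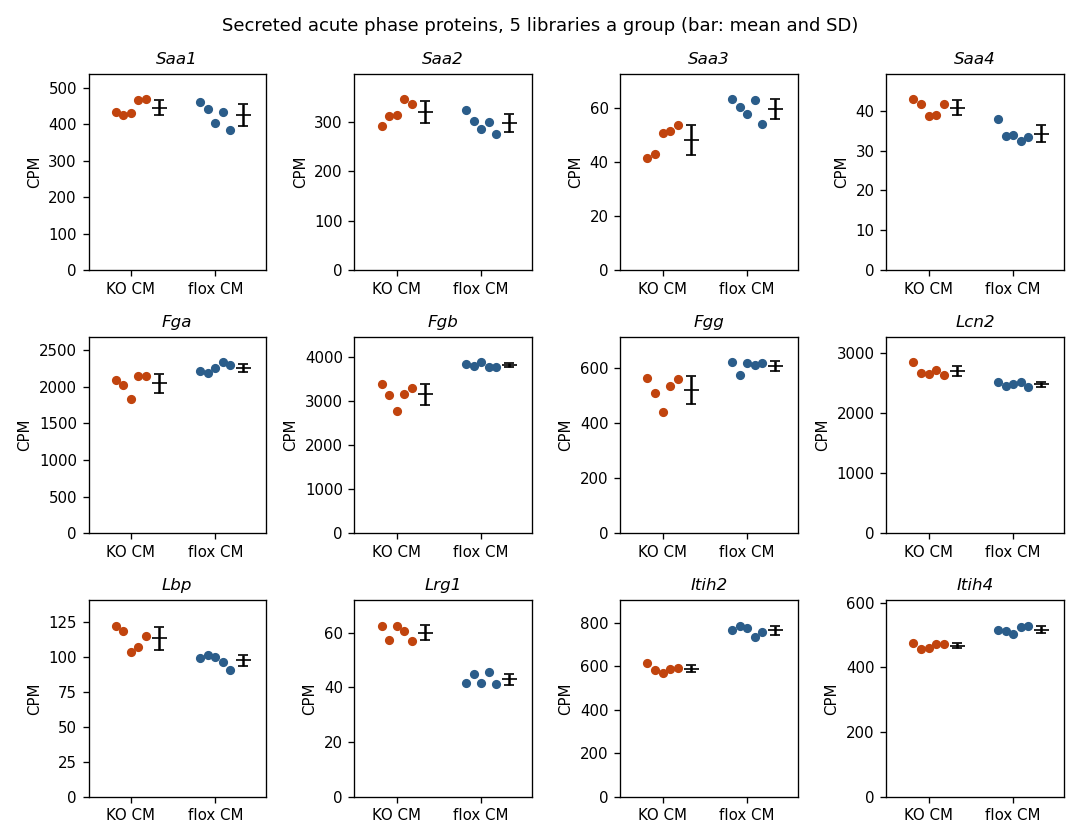
CPM per library (vertical axis, from 0) for 12 genes of secreted proteins, Mttp_KO_CM left and Mttp_flox_CM right in each panel, with the mean and SD as a bar beside the points. Saa3, the 3 fibrinogen chains, Itih2 and Itih4 are lower in Mttp_KO_CM, Saa4, Lcn2, Lbp and Lrg1 are higher, and Saa1 and Saa2 overlap.

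Lrg1, Lbp and Lcn2, secreted proteins outside the families above, all rose. Lrg1, a leucine-rich glycoprotein known to modify TGF-beta signalling in vessels (ENSMUSG00000037095, chromosome 17 from 56426678 to 56429001, minus strand), had 62.5, 57.3, 62.5, 60.7 and 56.9 CPM in Mttp_KO_CM, against 41.7, 44.8, 41.6, 45.5 and 41.3 CPM in Mttp_flox_CM (log2 change 0.48, SE 0.045, edgeR adjusted p = 3.9e-09). It had the largest rise of the 33 genes, and the groups were far apart. Lbp, which hands bacterial lipopolysaccharide to CD14, had 122, 118, 103, 106 and 115 CPM in Mttp_KO_CM, against 98.9, 101, 99.6, 95.8 and 90.7 CPM in Mttp_flox_CM (log2 change 0.21, SE 0.044, edgeR adjusted p = 0.00036). Lcn2, which captures bacterial siderophores (ENSMUSG00000026822, chromosome 2 from 32274645 to 32278264, minus strand), had 2843, 2659.6, 2649, 2719.7 and 2630.4 CPM in Mttp_KO_CM, against 2516, 2443, 2478, 2515 and 2441 CPM in Mttp_flox_CM. Its rise was small but exceeded the spread (log2 change 0.12, SE 0.024, edgeR adjusted p = 0.00024), and no libraries overlapped. Steap4, a membrane metalloreductase known to be induced by inflammatory cytokines, had 253, 226, 193, 189 and 195 CPM in Mttp_KO_CM, against 186, 172, 187, 165 and 175 CPM in Mttp_flox_CM (log2 change 0.26, SE 0.058, edgeR adjusted p = 0.0011), highest in Mttp_KO_CM replicates 1 and 2.

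Inter-alpha-trypsin inhibitor heavy chains, which are transferred to hyaluronan in the matrix, differed from gene to gene. Itih2 had 613, 581, 568, 585 and 592 CPM in Mttp_KO_CM, against 768, 786, 777, 733 and 759 CPM in Mttp_flox_CM (log2 change -0.38, SE 0.026, edgeR adjusted p = 1.9e-11), a fall many times its error. Itih4, an acute phase protein that kallikrein cleaves, had 474, 457, 459, 473 and 472 CPM in Mttp_KO_CM, against 515, 512, 502, 525 and 529 CPM in Mttp_flox_CM (log2 change -0.15, SE 0.025, edgeR adjusted p = 4.3e-05). Both had separate groups. Itih1 averaged 73.6 ± 4.04 CPM in Mttp_KO_CM and 72.5 ± 3.85 CPM in Mttp_flox_CM (log2 change 0.02, 95% interval -0.08 to 0.12, edgeR adjusted p = 0.77) and Itih3 289 ± 7.5 CPM in Mttp_KO_CM and 281 ± 3.03 CPM in Mttp_flox_CM (log2 change 0.04, 95% interval -0.02 to 0.10, edgeR adjusted p = 0.26), and neither passed. Itih1, Itih3 and Itih4 are neighbours on chromosome 14, and inside each library the ratio of Itih3 to Itih4 was 0.629 ± 0.0122 in Mttp_KO_CM and 0.553 ± 0.0128 in Mttp_flox_CM, higher in every Mttp_KO_CM library (exact two-sided permutation test, p = 0.00794, adjusted p = 0.0212).

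Among the serpins, protease inhibitors of plasma, Serpina10 changed most. Its product binds protein Z and inhibits factor Xa, and it had 18.3, 13.5, 13.7, 14.5 and 15.3 CPM in Mttp_KO_CM, against 22.5, 22.2, 21.5, 23.6 and 21.7 CPM in Mttp_flox_CM (log2 change -0.57, SE 0.075, edgeR adjusted p = 1.3e-06), the largest fall of the 33. All Mttp_KO_CM libraries were below all Mttp_flox_CM libraries. Serpina3m had 266, 276, 301, 308 and 307 CPM in Mttp_KO_CM, against 310.0, 312, 309, 351 and 349 CPM in Mttp_flox_CM (log2 change -0.16, SE 0.043, edgeR adjusted p = 0.004), with groups that just failed to meet. Serpina3k, a kallikrein-binding protein and the most abundant of the 4, averaged 1585 ± 55.3 CPM in Mttp_KO_CM and 1631 ± 24.6 CPM in Mttp_flox_CM (log2 change -0.04, 95% interval -0.10 to 0.02, edgeR adjusted p = 0.22), and passed without Mttp_KO_CM replicate 3 (log2 change -0.06, edgeR adjusted p = 0.042). Serpina3n, a strong acute phase responder in mice, had 505, 503, 615, 604 and 607 CPM in Mttp_KO_CM, against 497, 478, 506, 585 and 575 CPM in Mttp_flox_CM (log2 change 0.10, 95% interval -0.03 to 0.23, edgeR adjusted p = 0.17), and passed without Mttp_KO_CM replicate 1 (log2 change 0.14, edgeR adjusted p = 0.049). The span of Serpina3m covers the whole of Serpina3k on the same strand. Of the 100-base windows of Serpina3m transcripts 6.09% also occur in Serpina3k, so the counts of Serpina3m and Serpina3k are not fully separate. Serpina3n transcripts shared 0.0% of their windows with Serpina3k or Serpina3m. The ratio of Serpina3n to Serpina3k was 0.356 ± 0.0286 in Mttp_KO_CM and 0.323 ± 0.0267 in Mttp_flox_CM (exact permutation test, p = 0.0952, adjusted p = 0.152).

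Some members varied between libraries of one group in patterns that crossed the groups. Hp, Cp and Steap4 were each highest in replicates 1 and 2 of Mttp_KO_CM and in replicates 1 and 3 of Mttp_flox_CM. Serpina3n had its 2 lowest Mttp_KO_CM values in those same replicates 1 and 2, and Serpina3m did too. In Mttp_flox_CM both serpins were highest in replicate 4 and the unnumbered library, where Hp and Cp were lowest. No label gives a batch, date or plate. The median coefficient of variation over the 33 genes was 6.02% in Mttp_KO_CM and 4.63% in Mttp_flox_CM, and it was larger in Mttp_KO_CM for 23 genes.

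**Figure D4:**
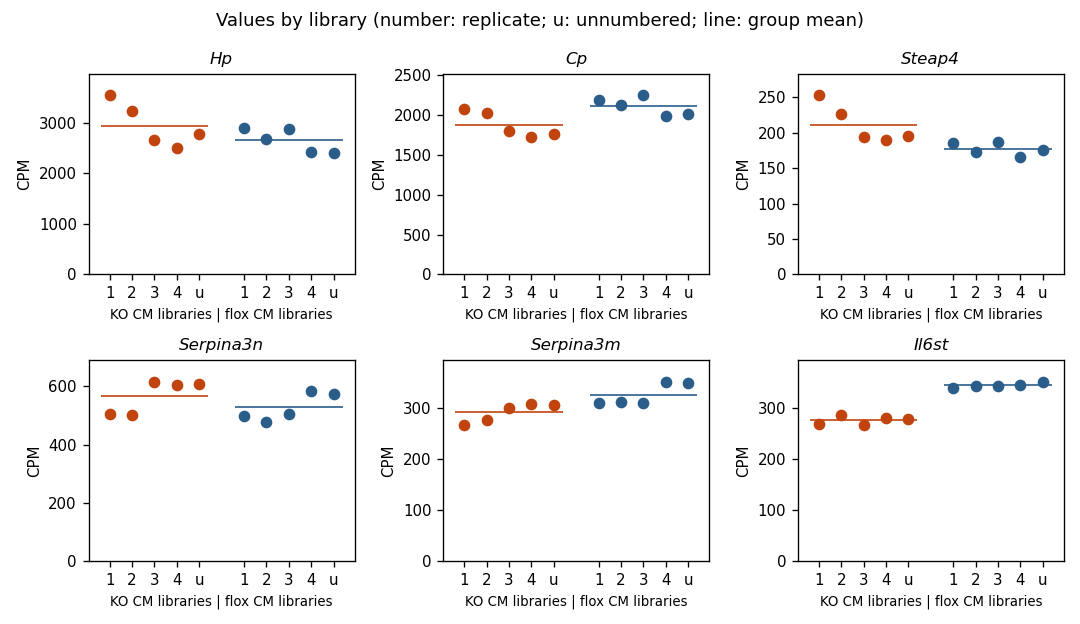
CPM by library (vertical axis, from 0) for 6 genes, with Mttp_KO_CM libraries on the left and Mttp_flox_CM on the right of each panel, and a line at each group mean. Hp, Cp and Steap4 stand highest in Mttp_KO_CM replicates 1 and 2, where Serpina3n and Serpina3m stand lowest, while Il6st stays within 268 to 287 CPM in Mttp_KO_CM and 340 to 352 CPM in Mttp_flox_CM.

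Taken as a sum, the 33 genes held 2.36, 2.25, 2.12, 2.19 and 2.22% of counts in the Mttp_KO_CM libraries, against 2.45, 2.39, 2.44, 2.38 and 2.35% in the Mttp_flox_CM libraries. The mean share was 2.23 ± 0.0896% in Mttp_KO_CM and 2.40 ± 0.0421% in Mttp_flox_CM (SD, n = 5), and Mttp_KO_CM replicate 1 lay inside the Mttp_flox_CM range. The order of levels per length was led by Hpx, with 1855 ± 110.3 FPKM in Mttp_KO_CM and 1977 ± 61.2 FPKM in Mttp_flox_CM, and Hp, with 1823 ± 268 FPKM in Mttp_KO_CM and 1644 ± 146 FPKM in Mttp_flox_CM, whose values overlap within their SD in Mttp_KO_CM. Lcn2 came next in Mttp_KO_CM at 1024 ± 32.5 FPKM, above Fgb at 823 ± 60.6 FPKM, and in Mttp_flox_CM the 2 stood in the other order, at 939 ± 13.9 FPKM for Lcn2 and 996 ± 11.5 FPKM for Fgb. Serpina3k, Orm1 and Fga followed in Mttp_KO_CM, and Serpina3k, Fga and Orm1 in Mttp_flox_CM. Neighbours from Saa1 to Serpina3m in Mttp_KO_CM did not differ beyond their SD. Il6ra was the lowest member in both groups. For Saa1 the table counts 2478 of the 2484 bases of the locus as gene length, introns included, so its FPKM value is lower than one per length of spliced mRNA would be. The gene length was also a large part of the locus for Saa2 (99.8%), Apcs (89.8%), Socs3 (72.8%), Lcn2 (72.5%) and Saa3 (70.4%). It was 17.6% for Hpx, 39.7% for Hp and 39.2% for Fgb. The order of levels, with the places of Lcn2 and Fgb in it, depends on these lengths.

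**Figure D5:**
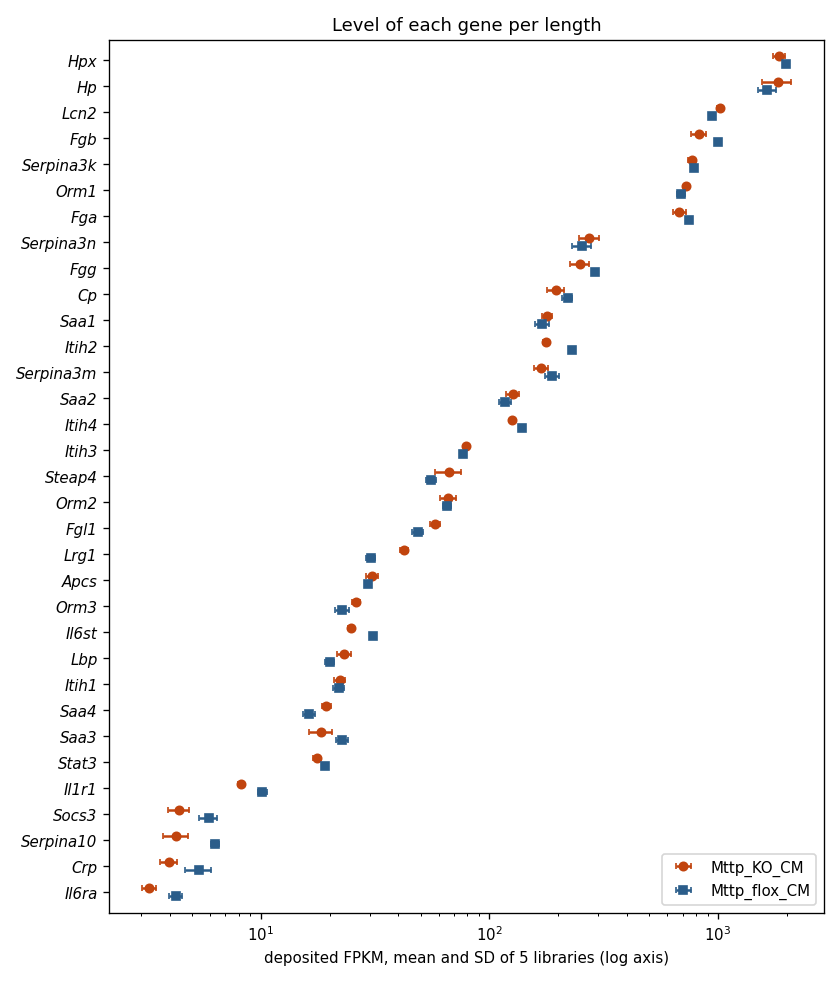
Deposited FPKM of the 33 genes (horizontal log axis), mean and SD of 5 libraries, Mttp_KO_CM drawn above Mttp_flox_CM in each row and genes ordered by the Mttp_KO_CM mean. Levels run from 3.26 FPKM in Mttp_KO_CM and 4.26 FPKM in Mttp_flox_CM for Il6ra to 1855 and 1977 FPKM for Hpx.

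Other acute phase genes outside the 33 were also mixed. Of 15 further positive acute phase genes tested, 4 were higher and 5 lower (median log2 change 0.00). The gene lists overlap, so their counts do not come from separate sets. Hamp, Mt1, Mt2 and Il1rn also stand among the IL-6 and STAT3 response genes, as do Cebpb and Cebpd of the transcription factors below. Il1rn and Rela are also in the list of IL-1, toll-like receptor and NF-kB genes. C3, the central complement component, rose by 0.19 in log2 units (SE 0.024), while Hamp, the iron hormone hepcidin, a STAT3 target, averaged 216 ± 9.13 CPM in Mttp_KO_CM and 265 ± 22.8 CPM in Mttp_flox_CM and fell by 0.29. Of 13 proteins that fall in an acute phase response, 2 were higher and 7 lower here (median log2 change -0.09). Ahsg, the fetuin-A gene, fell by 0.63, Apoa1 by 0.54, Ttr, which carries thyroxine, by 0.23 and Alb by 0.22, while Serpina7, the thyroxine-binding globulin, rose by 0.56. Apoa2, an apolipoprotein of high density lipoprotein, was called higher by a narrow margin (log2 change 0.09, SE 0.034, edgeR adjusted p = 0.046), a call lost under 17 of the 21 alternatives tried. 

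In the arm of IL-1, toll-like receptors and NF-kB, 6 of 24 genes tested were higher and 7 lower (median log2 change 0.02). Cd14, which takes lipopolysaccharide from LBP, had 250.4, 237, 234, 230.0 and 236 CPM in Mttp_KO_CM, against 171, 166, 170.0, 173 and 173 CPM in Mttp_flox_CM (log2 change 0.48, SE 0.029, edgeR adjusted p = 1.5e-12). Nfkbiz, an inducible nuclear cofactor of NF-kB that is needed for part of the IL-1 response, averaged 66.7 ± 5.75 CPM in Mttp_KO_CM and 38.9 ± 2.57 CPM in Mttp_flox_CM (log2 change 0.77, SE 0.056, edgeR adjusted p = 3.4e-11). Irak2, a kinase of the IL-1 receptor complex, rose by 0.58 in log2 units (SE 0.047). Il1rn, named above and also in this list, fell by 0.79 (SE 0.065, edgeR adjusted p = 4.4e-10).

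The transcription factors that bind acute phase promoters were mostly lower, 7 of 11 tested, with 3 higher (median log2 change -0.11). Foxa3 fell by 0.62 and Foxa1 rose by 0.44. Nr3c1, the glucocorticoid receptor, whose ligands enhance the response to IL-6, averaged 69.8 ± 3.61 CPM in Mttp_KO_CM and 77.9 ± 1.85 CPM in Mttp_flox_CM (log2 change -0.16, SE 0.04, edgeR adjusted p = 0.0031). Of 9 glucocorticoid targets 8 were lower and 0 higher by edgeR (median log2 change -0.32), and 0 were higher at an unadjusted p under 0.05, by DESeq2 or by limma-voom. Tat, tyrosine aminotransferase, averaged 38.4 ± 7.55 CPM in Mttp_KO_CM and 75.1 ± 15.6 CPM in Mttp_flox_CM (log2 change -0.97, SE 0.11, edgeR adjusted p = 2.1e-07), Fkbp5, a chaperone of the receptor, fell by 0.47, Sgk1, a kinase, by 0.40 and Igfbp1, a binding protein of growth factors, by 0.28.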

How the data were processed

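Polyadenylated RNA of primary mouse hepatocytes was sequenced in 10 libraries, 5 a group. Per the submitters' processing notes, HISAT2 2.0.5, featureCounts 1.5.0-p3 and build GRCm39 were used, and the authors deposited whole-number counts per gene and an FPKM table. Each deposited FPKM value was the count over the gene length, times a factor shared by the whole library. Summed counts were 1.00 to 1.01 of the library size in that factor in Mttp_KO_CM and 0.980 to 0.984 in Mttp_flox_CM, a scaling that no label describes. The strand setting is not given in the sources used here, so reads of overlapping genes on opposite strands cannot be told apart. The columns of 2 libraries, 1 a group, carry a number that no label gives, and their letter alone put them in a group.

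Counts were tested in R 4.3.3 with edgeR 4.0.16 (filterByExpr, min.count 10, min.total.count 15, TMM, glmQLFit, glmQLFTest), with Benjamini-Hochberg adjustment over 14183 genes that hold 99.8% of counts. Intervals are 95% and use 8 residual degrees of freedom. Ratios of members were compared by exact permutation in SciPy 1.17.1. DESeq2 1.42.0, limma 3.58.1, other scalings and filters, log2 FPKM with a pseudocount of 1 or 0.1, a replicate block and leaving out each library were the alternatives. The fit was tested on simulated counts, with changes put into genes drawn at random from those past the filter. It recovered 56.7% of changes of 1.25-fold, 77.3% of 1.5-fold and 90.6% of 2-fold. A gene that did not pass may therefore hold a small change. No 2 libraries of a group agreed within sampling noise. The members and gene lists were chosen with earlier results of these data known; all members are described, and named from each other list are up to 4 called genes with the smallest p and up to 2 called against the list's majority, besides Il6, Cebpb, Cebpd and Nr3c1. The result of 1 gene that this rule names is not reported here. Depth limits the precision of low genes such as Il6.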

Additional observations from a re-analysis of the deposited data

Results flagged for a closer look

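In 2 of the 66 sets of 5 libraries checked (33 genes in each group), 1 library stood apart from the other 4 by Dixon's 95% limit, which chance alone passes in about 1 of 20 sets. Socs3 was 10.4 CPM in Mttp_KO_CM replicate 4, against 12.9 to 13.8 CPM in the other Mttp_KO_CM libraries. Fgg was 578 CPM in Mttp_flox_CM replicate 2, against 613 to 622 CPM in the other Mttp_flox_CM libraries. Both genes were called lower in Mttp_KO_CM with each of these libraries left out.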

How the results depend on the processing

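Of the 23 members called, 21 were called under all 21 alternatives, and 0 reversed. Hpx and Orm3 lost their calls, Hpx also on log2 FPKM and Orm3 also without TMM scaling and without both unnumbered libraries. Of the 10 members not called, 5 passed at least once, and the sign of Orm2 and Itih1 changed. With no filter on low counts Hp passed (log2 change 0.14, SE 0.023, edgeR adjusted p = 2e-08). Its SE was 0.068 in the main fit. Serpina3n and Saa2 also passed at that setting (edgeR adjusted p = 0.0047 and 0.0092). Serpina3k passed without TMM scaling (log2 change -0.08, edgeR adjusted p = 0.012). Leaving out 1 library gave 6 to 9 members higher and 15 to 17 lower. With a 1.5-fold minimum the counts were 0 members higher and 0 lower, and 344 genes higher and 716 lower. Without TMM scaling the median of all genes moved to -0.04 and 38.1% of calls were higher, against 50.1% with it. Without both unnumbered libraries the log2 differences were -0.15 for Fgb to Fga, -0.23 for Hpx to Hp and 0.17 for Itih3 to Itih4, each with adjusted p = 0.076 in the exact permutation test, where 4 against 4 libraries cannot give a raw p below 0.0286. Leaving out 1 library gave log2 differences of 0.02 to 0.06 for Saa2 to Saa1 and -0.11 to -0.07 for Fgg to Fga. Over all genes tested, deviations of libraries with the same replicate number were weakly correlated, from -0.00815 to 0.0609. Those of libraries with different numbers ran from -0.0492 to 0.0308. Such correlations over all genes cannot settle whether the numbers pair the libraries, and no label says so. The fit with a replicate block gave 8 members higher and 16 lower, and 2326 genes higher and 2325 lower. With the block Hp and Serpina3n passed and Orm3 did not.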
